A study of Mus musculus with 6 samples.

Results

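Pnck encodes a calcium/calmodulin-dependent protein kinase of the CaMKI type, and it is described here with 9 relatives of the same signalling system: Camk1, Camk1d, Camk1g, Camk4, Camkk1, Camkk2, Camk2a, Camk2b and Camkv. The 10 genes are the rows of the deposited expression table that carry these symbols, 10 of 43346 rows. The set was selected on measured values, because Pnck was picked for its higher counts in Kdm5c deficient mice. The counts, levels and fold changes of the 10 genes between genotypes are therefore given as a description, with no test.

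RNA was sequenced from the brain of 6 adult male mice, of which 3 carried the genotype Kdm5c deficient and 3 were wild type littermates. Kdm5c is an X-linked gene for a demethylase of lysine 4 on histone H3. Mice of both genotypes came from the same kind of cross, a heterozygous deficient mother on C57BL/6 and a wild type 129 father, and share the strain label C57BL/6 & 129 (50:50). The labels do not describe the allele, the way it was made or the brain region taken, which limits what the deficient group stands for.

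Calcium that enters a neuron binds calmodulin, and the complex switches on a family of serine/threonine kinases. In the cascade branch, the kinase kinases CaMKK1 and CaMKK2 phosphorylate CaMKI-type kinases and CaMKIV on their activation loops, and CaMKIV carries the signal into the nucleus, where it phosphorylates CREB. CaMKII, built from alpha and beta subunits in neurons, keeps itself active by autophosphorylation and is central to synaptic plasticity. Pnck, named for its rise in the pregnant mammary gland and also known as CaMKI beta, is expressed in brain.

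The CaMKI-type genes resemble one another in their coding sequence, so a read of one could in principle be given to another. The stretches below show the place where Pnck matches its 3 CaMKI-type relatives at the most bases in sum, 60 bases of the kinase coding sequence from GENCODE M21 on GRCm38, written 5′ to 3′ on the sense strand. Capitals mark bases that differ from Pnck, and positions count from the A of the start codon. They run from 684 to 743 in Pnck, from 702 to 761 in Camk1, from 711 to 770 in Camk1d and from 705 to 764 in Camk1g.
Pnck: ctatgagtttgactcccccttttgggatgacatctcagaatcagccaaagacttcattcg
Camk1: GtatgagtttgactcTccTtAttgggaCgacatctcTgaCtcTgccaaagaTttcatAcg
Camk1d: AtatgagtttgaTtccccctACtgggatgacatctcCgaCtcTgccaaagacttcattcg
Camk1g: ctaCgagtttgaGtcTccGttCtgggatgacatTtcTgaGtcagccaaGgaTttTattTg
In these stretches Camk1 matched Pnck at 50 of the 60 bases, Camk1d at 53 and Camk1g at 48. The best match of any 60-base stretch, taken for each relative on its own, was 53 bases for Camk1, 53 for Camk1d and 49 for Camk1g. Over the whole coding sequences, the longest run shared with Pnck without a mismatch was 17 bases for Camk1 and for Camk1d, and 14 bases for Camk1g.

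Across the whole gene, none of the 1961 different 50-base words in Pnck transcripts occurred in the annotated transcripts of any other gene, on either strand. No member shared such a word with another member. Camk1 shared 137 of 6174 words, or 2.22%, through exons of Ogg1 on the opposite strand, and Camk4 shared 23 of 3238, or 0.71%, through an antisense gene. Camk2a shared 0.293% and Camk2b 0.159% of their words with other genes, and the remaining 5 members shared none. Since use of strand in the counting is not given in the sources used here, Camk1 and Camk4 are uncertain to the extent of those overlaps. The read length is not given either.

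Pnck lies at chrX:73655994-73660117 on the minus strand of GRCm38, where its annotated transcripts cover 1971 bases of exon. The other CaMKI-type genes are Camk1 at chr6:113334124-113343984, Camk1d at chr2:5293457-5714515 and Camk1g at chr1:193346346-193370298. The kinase kinase genes are Camkk1 at chr11:73019008-73042073 and Camkk2 at chr5:122731170-122779409. Camk4 lies at chr18:32934931-33191228, Camk2a at chr18:60925618-60988152, Camk2b at chr11:5969644-6066362 and Camkv at chr9:107935674-107949691.

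Libraries held 20221675 to 24555412 counted reads. Kdm5c itself had 73.9, 65.5 and 78.9 counts per 1000000 library reads (CPM) in the 3 deficient mice and 77.6, 82.8 and 84.0 CPM in the 3 wild-type mice. The ranges overlapped, and the log2 fold change of -0.16 ± 0.07 (deficient over wild type, ± SE) did not pass edgeR's quasi-likelihood test (Benjamini-Hochberg adjusted p = 0.196), so the summed count of this gene does not separate the genotypes. Deficient mouse 2 stood apart: the summed level of 10 cerebellar granule cell markers, led by Cbln3 and Fat2, was 191 CPM there, 872 and 1141 CPM in the other deficient mice and 1229 to 1467 CPM in wild type. For 6 Purkinje cell markers, led by Itpr1 and Calb1, it was 966 CPM in that mouse, 1689 and 1975 CPM in the other deficient mice and 2193 to 2464 CPM in wild type. The 10 forebrain excitatory neuron markers, led by Slc17a7 and Lamp5, summed to 1478 to 1844 CPM in deficient and 1402 to 1617 CPM in wild-type mice. All genes of these 3 lists were tested and none was at 0 in any mouse. Of their 26 genes, 0 passed edgeR's quasi-likelihood test, 10 had an unadjusted p under 0.05, and DESeq2 called 2 and limma-voom 0.

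Pnck was about 2-fold higher in the deficient brains and stood out in its family. Deficient mice 1, 2 and 3 gave 2950, 3747 and 3189 Pnck reads, while 1830, 1505 and 1540 came from wild-type mice 1, 2 and 3. Scaled for library size, these were 138.7, 157.2 and 146.8 CPM against 74.1, 73.6 and 67.4 CPM. Every deficient mouse lay above every wild-type mouse, and the lowest deficient value was well above the highest wild-type value. The means were 148 ± 9.32 CPM (SD, n = 3) and 71.7 ± 3.76 CPM (SD, n = 3). This is a difference of 1.04 ± 0.06 log2 units (SE), or 2.06-fold. In bulk tissue, a change in the number of cells of a type and a change in RNA per cell cannot be told apart, here and for every gene below.

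With each mouse left out in turn, the log2 fold change of Pnck stayed between 0.99 and 1.09. The value without deficient mouse 2, whose cerebellar markers were low, was the lowest of these, 0.99. The summed forebrain excitatory markers were 1478, 1844 and 1730 CPM in deficient mice 1, 2 and 3, and only mouse 1 lay within the wild-type range. Pnck had the same order in these mice, at 138.7, 157.2 and 146.8 CPM. In wild-type mice 1, 2 and 3 the order was not shared. The forebrain markers summed to 1498, 1402 and 1617 CPM there, and Pnck had 74.1, 73.6 and 67.4 CPM. The summed CPM of other marker lists also separated the genotypes, though the most abundant genes weigh most in such sums. The 8 hypothalamic markers, led by Avp and Trh, summed to 45.1 to 57.2 CPM in deficient and 21.9 to 37.3 CPM in wild-type mice, and 3 of the 7 that were tested passed edgeR's test. The 6 microglia markers summed to 170 to 192 CPM against 155 to 164 CPM, with none past the edgeR threshold. Lower in deficient mice were the sums of 6 oligodendrocyte markers (5394 to 6841 against 6998 to 7916 CPM, 1 passed) and of 6 thalamic markers (344 to 472 against 485 to 546 CPM, 1 passed). Averaged over genes as deviations in log2 CPM, the hypothalamic and thalamic lists still separated the genotypes. The microglia ranges then overlapped (deficient -0.05 to 0.20, wild type -0.14 to 0.02), as did the oligodendrocyte ranges (deficient -0.25 to 0.07, wild type 0.01 to 0.20). No marker of these 4 lists was at 0 in any mouse. The part of these lists, and of the cerebellar and forebrain lists, in the Pnck values was not tested. In the authors' deposited table, which gives wild type over deficient on a log2 scale, Pnck has a value of -0.98.

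Among the 2454 tested genes whose mean reached 100 CPM, Pnck had rank 2 by log2 fold change, after 2900052N01Rik. Only these 2 of the 2454 genes were more than 2-fold higher in the deficient mice, and 5 differed by more than 2-fold in either direction. Pnck reached the cut of 100 CPM only through the deficient mice, with means of 148 CPM there and 71.7 CPM in wild type. It was also picked for a large difference in this contrast, so its rank is a description and nothing is read from it.

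**Figure D1:**
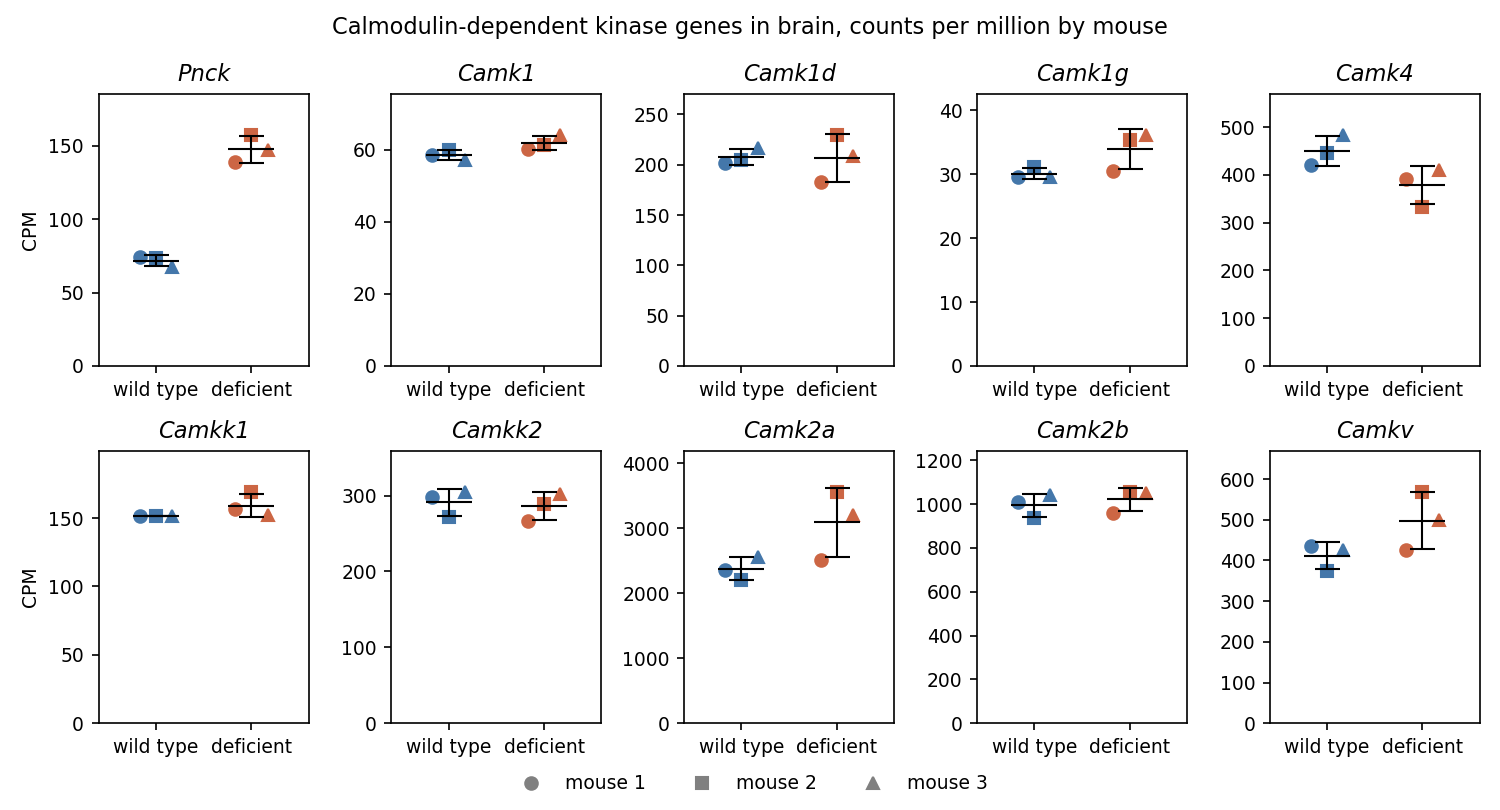
Level of each of the 10 kinase genes in each mouse, in CPM on separate linear axes that start at 0, with points for the 3 deficient and 3 wild-type mice and bars for the group mean ± SD. The Pnck points separate by genotype (138.7 to 157.2 CPM against 67.4 to 74.1 CPM), and the points of the other genes lie close together or overlap.

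The other CaMKI-type genes did not share this difference in level. Camk1, which encodes CaMKI alpha, had 60.3, 61.3 and 64.1 CPM in deficient and 58.5, 59.9 and 57.2 CPM in wild-type mice. Its ranges did not overlap, yet the gap between them was under 1 CPM, and the log2 fold change was 0.08 ± 0.05. Camk1d, which encodes CaMKI delta, had 182.4, 229.5 and 209.0 CPM in deficient and 201.5, 205.0 and 216.5 CPM in wild-type mice. The deficient mice lay on both sides of the wild-type range, with a log2 fold change of -0.0048 ± 0.08. Camk1g, which encodes the membrane-anchored CaMKI gamma, had 30.5, 35.3 and 36.1 CPM in deficient and 29.6, 31.1 and 29.6 CPM in wild-type mice. Its deficient mouse 1 lay inside the wild-type range and the other deficient mice above it, giving 0.18 ± 0.07 on the log2 scale.

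To compare amounts between genes, CPM were divided by the kilobases of annotated exon. On this scale Pnck supplied 44.1, 43.3 and 40.9% of the CaMKI-type RNA in wild-type mice and 60.6, 59.7 and 58.9% in deficient mice. The mean share was 42.8 ± 1.68% (SD, n = 3) in wild type and 59.7 ± 0.862% (SD, n = 3) in deficient mice. The sum of the other 3 genes was 48.7 ± 0.911 CPM per kilobase in wild type and 50.5 ± 4.32 CPM per kilobase in deficient mice, a difference smaller than the spread. The sum of all 4 was 85.0 ± 1.34 and 125 ± 8.90 CPM per kilobase. Read against the longest annotated transcript of each gene instead of all its exons, the shares were 41.3 ± 1.49 and 58.1 ± 0.751%. Pnck was thus the main CaMKI-type transcript per length in the deficient mice, at 74.9 ± 4.73 CPM per kilobase, and in wild type at 36.4 ± 1.91 it also exceeded Camk1d at 28.0 ± 1.06, the next in line.

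**Figure D2:**
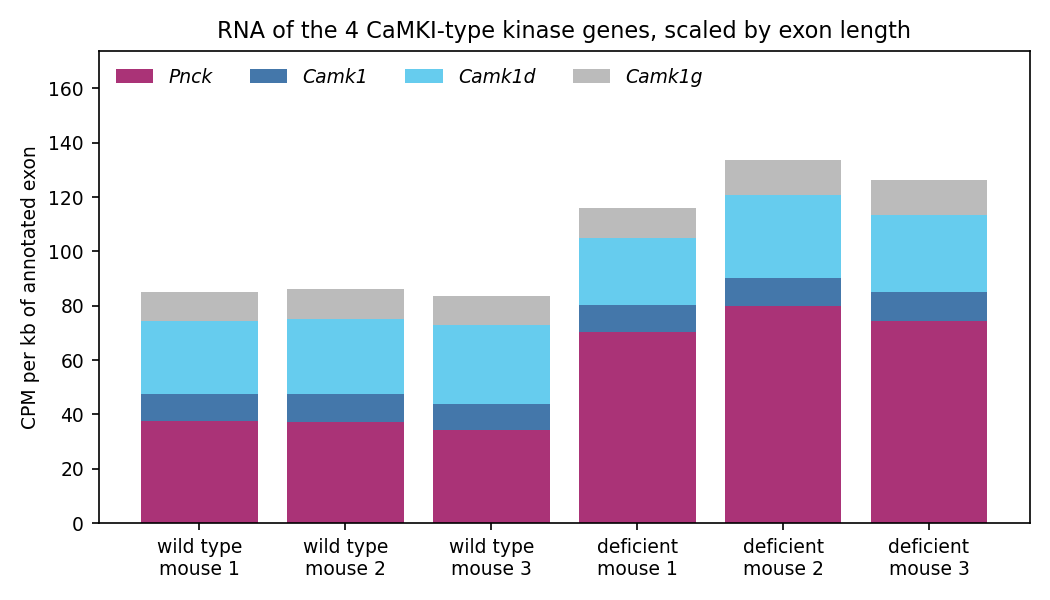
Stacked bars of the level per kilobase of exon of Pnck, Camk1, Camk1d and Camk1g in each of the 6 mice, on a linear axis that starts at 0. The segments of Camk1, Camk1d and Camk1g together keep a like height in all mice, and the Pnck segment makes up 58.9 to 60.6% of the bar for deficient mice and 40.9 to 44.1% for wild type.

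The kinase kinases upstream of the CaMKI-type enzymes lay close together in both genotypes. Camkk1 had 156.4, 168.7 and 152.1 CPM in deficient and 151.5, 151.5 and 151.3 CPM in wild-type mice. The ranges did not overlap only because the wild-type mice were nearly identical, and the log2 fold change was 0.07 ± 0.05. Camkk2, which also phosphorylates the energy sensor AMPK, had 266.1, 288.6 and 302.4 CPM in deficient and 298.2, 271.1 and 304.2 CPM in wild-type mice. These ranges overlapped almost fully, with a log2 fold change of -0.03 ± 0.06. The ratio of Camkk2 to Camkk1 per length ran from 0.581 to 0.679 across deficient mice and from 0.611 to 0.686 across wild-type mice.

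Camk4 was the member with the lowest deficient level relative to wild type. It had 391.3, 333.3 and 410.6 CPM in deficient and 421.2, 445.8 and 483.4 CPM in wild-type mice. The ranges did not overlap, and deficient mouse 2 was the lowest of all. The means of 378 ± 40.2 and 450.1 ± 31.3 CPM (SD, n = 3 each) gave a log2 fold change of -0.25 ± 0.08, or 0.841-fold. Without deficient mouse 2 it was -0.17. CaMKIV is abundant in cerebellar granule cells, whose 10 markers were all measured. They summed to 191 to 1141 CPM in deficient and 1229 to 1467 CPM in wild-type mice and were lowest in the same mouse, and their part in the Camk4 values was not tested.

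Camk2a, which encodes the alpha subunit of CaMKII and marks forebrain excitatory neurons, had the highest counts of the members. Its levels were 2518, 3552 and 3197 CPM in deficient and 2363, 2207 and 2560 CPM in wild-type mice. Deficient mice 2 and 3 lay above all wild-type mice, while deficient mouse 1 lay below wild-type mouse 3. The log2 fold change was 0.38 ± 0.11, with 0.27 without deficient mouse 2 and 0.51 without deficient mouse 1. Camk2b, which encodes the beta subunit, had 961, 1054 and 1050 CPM against 1010, 936 and 1040 CPM, overlapping ranges with a log2 fold change of 0.04 ± 0.06. The ratio of Camk2a to Camk2b per length was 3.20, 4.12 and 3.72 in the deficient mice, compared with 2.86, 2.88 and 3.01 in wild type, so each deficient mouse had the higher ratio.

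Camkv encodes a kinase-like protein of synaptic vesicles that lacks catalytic activity. It had 425.7, 567.4 and 500.5 CPM in deficient and 436.5, 373.8 and 426.0 CPM in wild-type mice. Deficient mouse 1 lay between the wild-type mice and the other deficient mice above them, as for Camk2a. The log2 fold change was 0.27 ± 0.10, with 0.17 without deficient mouse 2 and 0.38 without deficient mouse 1. The summed forebrain excitatory markers had the same order of deficient mice, lowest in mouse 1 at 1478 CPM and highest in mouse 2 at 1844 CPM, and the part of these cells in the Camk2a and Camkv values was not tested.

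**Figure D3:**
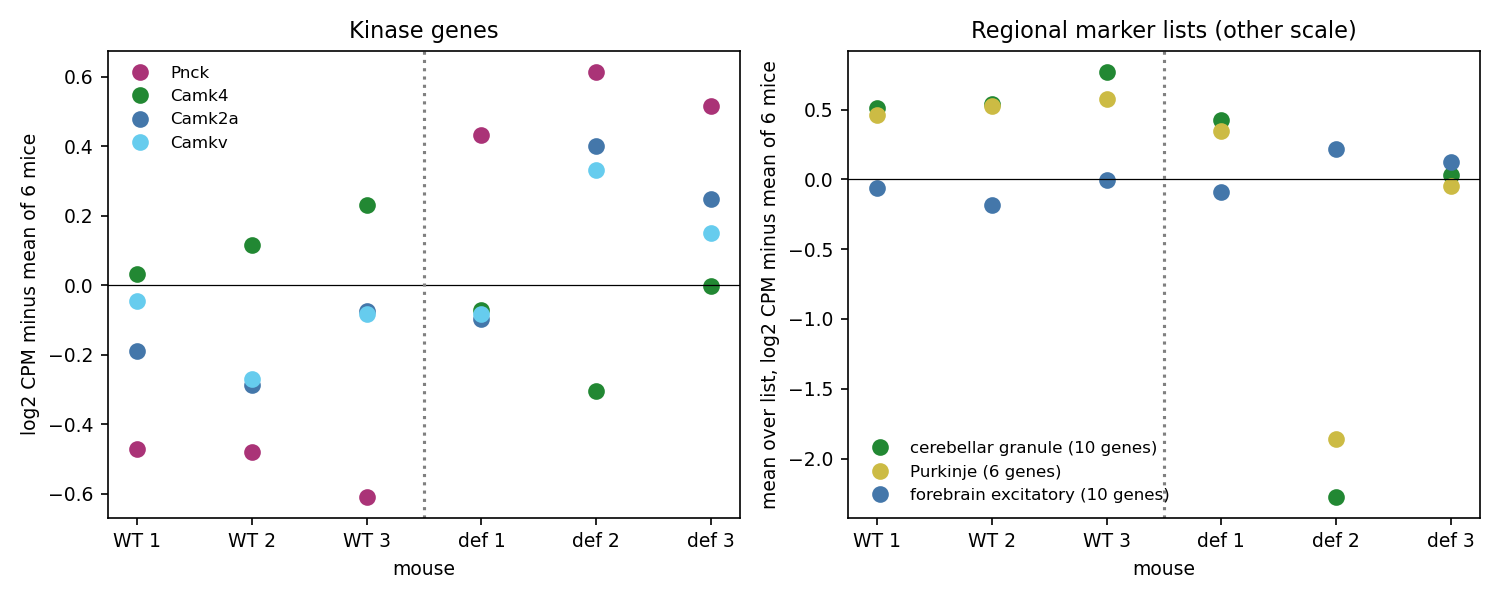
Deviation from the mean over the 6 mice, in log2 CPM, with a point for each mouse: Pnck, Camk4, Camk2a and Camkv on the left, and the averages of 3 regional marker lists on the right on another scale. Pnck separates by genotype (deficient 0.43 to 0.61, wild type -0.61 to -0.47), Camk4 and the cerebellar lists are lowest in deficient mouse 2, and Camk2a and Camkv are highest in that mouse.

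The members differed in how much they varied between mice of a genotype. Within the deficient mice, the coefficient of variation was 17.0% for Camk2a, 14.2% for Camkv, 11.4% for Camk1d, 10.6% for Camk4 and 9.03% for Camk1g. It was 6.41% for Camkk2, 6.32% for Pnck, 5.44% for Camkk1, 5.15% for Camk2b and 3.20% for Camk1. In wild-type mice it was 7.45% for Camk2a, 8.15% for Camkv, 3.78% for Camk1d, 6.96% for Camk4 and 2.83% for Camk1g. For Camkk2 it was 6.06%, for Pnck 5.25%, for Camkk1 0.096%, for Camk2b 5.37% and for Camk1 2.34%. Pnck thus combined the largest difference between genotypes with a moderate spread inside each of them.

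Per kilobase of exon, the wild-type order from high to low was Camk2a (318 ± 23.7 CPM per kilobase, SD, n = 3), Camk4 (138 ± 9.61), Camkv (109.5 ± 8.92), Camk2b (109 ± 5.86), Camkk1 (40.6 ± 0.039), Pnck (36.4 ± 1.91), Camk1d (28.0 ± 1.06), Camkk2 (26.7 ± 1.61), Camk1g (10.9 ± 0.309) and Camk1 (9.79 ± 0.229). Camkv and Camk2b, and Camk1d and Camkk2, did not differ beyond their spread. In deficient mice Pnck, at 74.9 ± 4.73 CPM per kilobase, lay above Camkk1 at 42.7 ± 2.32 and below Camk2b at 112 ± 5.76. The order depends on the length assumed. By the longest annotated transcript, Camk2a kept rank 1 and Pnck rank 6, while Camk2b took rank 2, Camk4 rank 3, Camkv rank 4, Camkk2 rank 5, Camkk1 rank 7, Camk1d rank 8, Camk1 rank 9 and Camk1g rank 10.

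Of the 10 members, 1 was past the adjusted threshold of 0.05 in edgeR's quasi-likelihood fit, and that was Pnck. DESeq2 placed 3 past it (Pnck, Camk4 and Camk2a), edgeR without the low-count filter 2 (Pnck and Camk2a), and edgeR without deficient mouse 1 placed 4 (Pnck, Camk1g, Camk2a and Camkv). Over all 15127 genes tested in the main fit, 4.93% were past it in either direction, 2.45% as higher and 2.48% as lower in deficient mice. The other settings placed more genes past it. DESeq2 placed 1213 of 15127, edgeR without the low-count filter 1121 of 21087, and edgeR without deficient mouse 1 placed 2098 of 15379. The genotypes did not overlap in 4 of the 10 members, with Pnck, Camk1 and Camkk1 higher and Camk4 lower, while 30.8% of all tested genes had no overlap. The median log2 fold change was 0.08 over the members and 0.0012 over all genes. As the contrast chose the members, nothing is read from these counts.

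**Figure D4:**
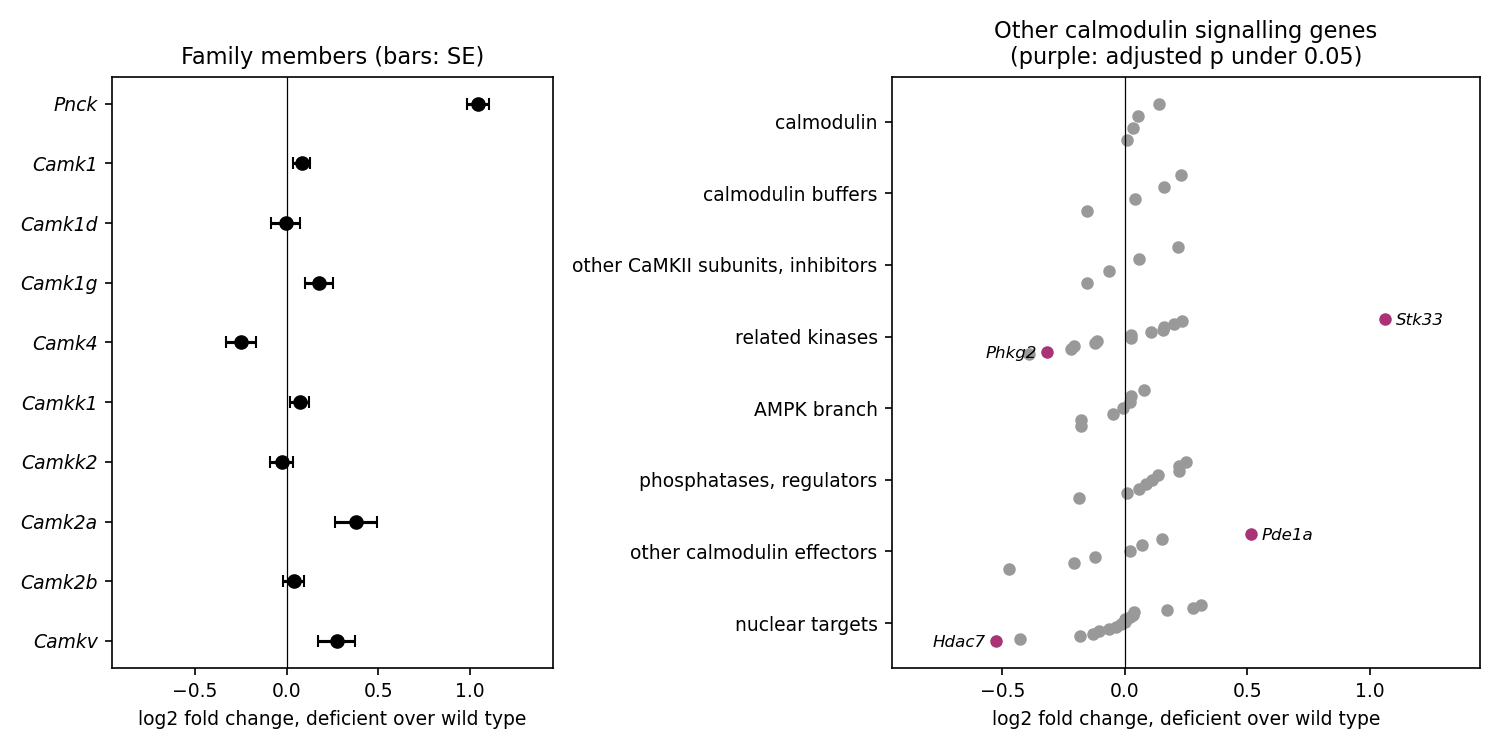
Log2 fold change (deficient over wild type) of the 10 kinase genes on the left, with bars of 1 SE, and of 65 other calmodulin signalling genes by role group on the right, with genes past the adjusted threshold in purple and named. Pnck lies at 1.04 and the 9 other members between -0.25 and 0.38.

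The rest of calmodulin signalling was read from 65 further genes in 8 role groups, all of which were expressed well enough to be tested. By edgeR's quasi-likelihood test with adjustment over all genes, 2 rose (Stk33 and Pde1a) and 2 fell (Phkg2 and Hdac7) in the deficient mice, beside the 2.45 and 2.48% of all genes given above. At an unadjusted p under 0.05, 19 of the 65 and 3760 of all 15127 genes differed. The list's median log2 fold change was 0.03, with 39 genes positive and 26 negative, beside 7602 positive of all 15127 genes. The genotypes did not overlap in 19 of the 65 genes, 9 higher and 10 lower, beside the 30.8% of all genes.

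Hdac7 encodes a class IIa histone deacetylase, a class of repressors that calmodulin-dependent kinases drive out of the nucleus by phosphorylation. It had 24.3, 21.5 and 23.5 CPM in deficient and 33.8, 35.4 and 30.6 CPM in wild-type mice, without overlap. The log2 fold change was -0.53 ± 0.08 (edgeR quasi-likelihood, Benjamini-Hochberg adjusted p = 0.0144). The call was lost without wild-type mouse 1 (adjusted p = 0.0768 in edgeR) or wild-type mouse 2 (adjusted p = 0.0789 in edgeR). A 29-base stretch of its exons overlaps Slc48a1 on the opposite strand, so its count is uncertain to that extent.

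Pde1a encodes a phosphodiesterase that calmodulin activates to break down cyclic nucleotides. Its levels were 210.4, 307.1 and 254.5 CPM in deficient and 181.7, 164.8 and 193.5 CPM in wild-type mice, without overlap and highest in deficient mouse 2. The log2 fold change was 0.52 ± 0.12 (edgeR quasi-likelihood, Benjamini-Hochberg adjusted p = 0.0495). The call was lost without deficient mouse 3 or any 1 of the wild-type mice, with adjusted p from 0.105 to 0.202 in edgeR. Its relative Pde1c had a log2 fold change of -0.47 ± 0.16 and did not pass (edgeR quasi-likelihood, adjusted p = 0.113). Pde1c passed as lower with DESeq2 (adjusted p = 0.0300) and in edgeR without deficient mouse 1 (adjusted p = 0.0224).

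Stk33 encodes a serine/threonine kinase of the wider CAMK group and was rare, at 2.35, 3.06 and 2.90 CPM in deficient and 1.46, 1.61 and 0.918 CPM in wild-type mice. Its log2 fold change was 1.06 ± 0.23 (edgeR quasi-likelihood, Benjamini-Hochberg adjusted p = 0.0373). Phkg2 encodes a catalytic subunit of phosphorylase kinase, an enzyme that carries calmodulin as a built-in subunit. It had 31.3, 29.0 and 31.4 CPM in deficient and 36.2, 41.6 and 36.3 CPM in wild-type mice, with a log2 fold change of -0.32 ± 0.07 (edgeR quasi-likelihood, Benjamini-Hochberg adjusted p = 0.0442). With each mouse left out in turn, both calls held in only 1 of the 6 fits, the one without deficient mouse 1, and in the others the adjusted p in edgeR ran from 0.0600 to 0.112 for Stk33 and from 0.0675 to 0.164 for Phkg2. Exons of Stk33 overlap an antisense gene over 365 bases, and those of Phkg2 overlap Ccdc189 over 876 bases, so both counts are uncertain.

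No call was made among the 4 calmodulin genes, the 4 calmodulin buffers, the 4 other CaMKII subunits and inhibitors, the 7 genes of the AMPK branch or the 9 phosphatases and regulators, by edgeR's quasi-likelihood test. Of these 28 genes, 7 had an unadjusted p under 0.05, DESeq2 called 1, Gap43, and limma-voom called 0. The calmodulin genes lay between 0.01 and 0.14 on the log2 scale, with 0.14 ± 0.06 for Calm2. Among the buffers, which hold calmodulin at the membrane or in the cytosol, Gap43 had 0.23 ± 0.07 and Pcp4 -0.15 ± 0.06. The CaMKII inhibitor gene Camk2n1 had 0.22 ± 0.08, and the CaMKII gamma subunit gene Camk2g had -0.06 ± 0.04.

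The AMPK beta subunit genes Prkab1 and Prkab2 had log2 fold changes of -0.18 ± 0.13 and -0.18 ± 0.06. In the phosphatase group 8 of 9 genes were positive, with a median of 0.11, beside 7602 positive of all 15127 genes. The genotypes did not overlap in 3 of these 9 genes, beside the 30.8% of all genes. The calcineurin regulator Rcan1 had 0.22 ± 0.06 and the kinase phosphatase Ppm1e 0.22 ± 0.08. Among the 16 nuclear targets, the CREB coactivator gene Crtc2 had -0.43 ± 0.10 and missed the threshold narrowly (edgeR quasi-likelihood, Benjamini-Hochberg adjusted p = 0.0538). Crtc2 passed as lower with DESeq2 (adjusted p = 0.0072) and limma-voom (adjusted p = 0.0498). It also passed in edgeR without the low-count filter (adjusted p = 0.0262) or without deficient mouse 1 (adjusted p = 0.0085). The adjusted p of the other genes named in these groups ran from 0.0679 for Rcan1 to 0.446 for Prkab1 in edgeR's quasi-likelihood test. Exons of Pcp4 and Prkab2 overlap those of another annotated gene.

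The position of Pnck was not used to choose the members, so the genes around it could be tested. The 10 nearest tested genes on each side reached from 737 kilobases at lower coordinates to 235 kilobases at higher coordinates. Calls in either direction were counted, and 2 of 20 passed, beside 4.93% of all genes. Both were higher in deficient mice, as were 2.45% of all genes. Zfp92, a zinc finger gene 245 kilobases away, had 5.92, 7.18 and 6.45 CPM in deficient and 4.09, 4.60 and 4.46 CPM in wild-type mice, a log2 fold change of 0.58 ± 0.12 (edgeR quasi-likelihood, Benjamini-Hochberg adjusted p = 0.0358). Pnma3, a paraneoplastic antigen family gene 591 kilobases away, had 31.9, 35.9 and 32.8 CPM against 27.0, 29.0 and 25.8 CPM, or 0.30 ± 0.07 (edgeR quasi-likelihood, Benjamini-Hochberg adjusted p = 0.0479). Both calls held only in the fit without deficient mouse 1 when each mouse was left out. In the other 5 fits the adjusted p in edgeR ran from 0.0610 to 0.134 for Zfp92 and from 0.0757 to 0.152 for Pnma3. Exons of Zfp92 overlap an antisense gene over 68 bases.

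The 2 nearest genes on each side of Pnck did not pass edgeR's quasi-likelihood test. Dusp9, 16.6 kilobases away at lower coordinates, had a log2 fold change of 0.03 ± 0.26 (edgeR quasi-likelihood, adjusted p = 0.965), and the calcium pump gene Atp2b3 had -0.24 ± 0.09 (edgeR quasi-likelihood, adjusted p = 0.149). On the other side, the creatine transporter gene Slc6a8, 17.2 kilobases away, had -0.25 ± 0.07 (edgeR quasi-likelihood, adjusted p = 0.0647), and Bcap31 had -0.02 ± 0.06 (edgeR quasi-likelihood, adjusted p = 0.870). Slc6a8 passed as lower with DESeq2 (adjusted p = 0.0164), and in edgeR without the low-count filter (adjusted p = 0.0437) or without deficient mouse 1 (adjusted p = 0.0178). The median of the 20 neighbours was -0.02, 8 were positive, and in 8 of 20 the genotypes did not overlap, beside the 30.8% of all genes. Xlr3a, named after its value was seen, had the largest value among the 20 at 1.63 ± 0.56 and did not pass (edgeR quasi-likelihood, adjusted p = 0.121). Kdm5c lies 78.6 megabases from Pnck on the same chromosome.

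**Figure D5:**
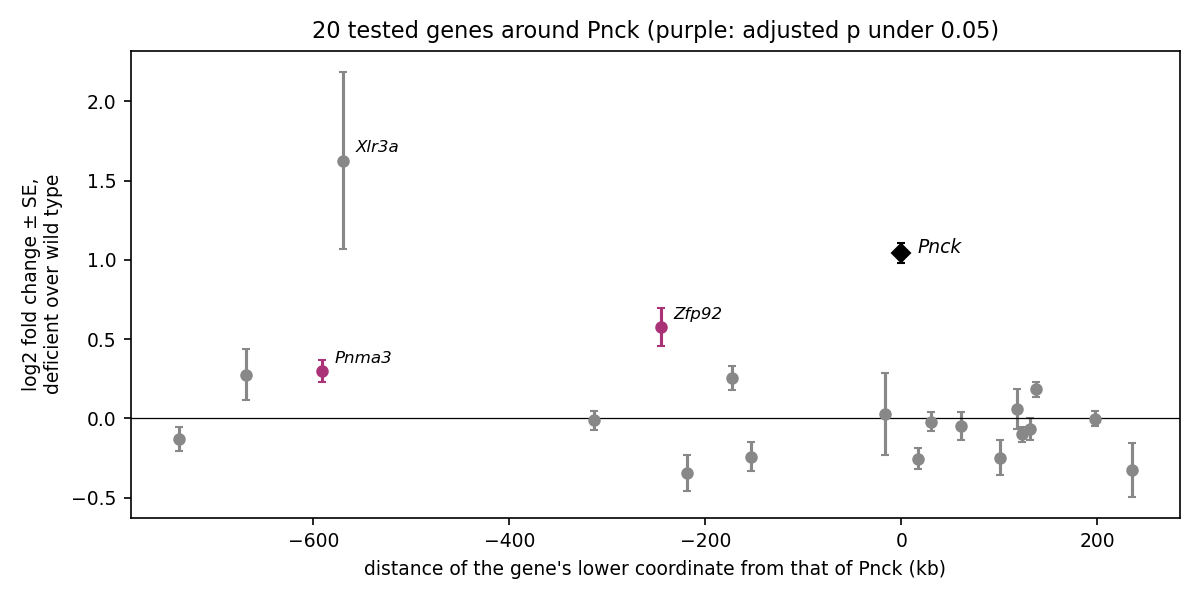
Log2 fold change (deficient over wild type, bars of 1 SE) of Pnck and its 20 nearest tested neighbours against the distance of their lower coordinate from that of Pnck in kilobases. Pnck stands at 1.04, the nearest genes on each side lie between -0.25 and 0.03, and the value of 1.63 belongs to Xlr3a.

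The genes whose pattern over the 6 mice was most like that of Pnck were found by the root mean square difference of log2 CPM, each centred on its own mean. The 5 closest, from 0.0931 to 0.0996 log2 units, were Plcxd1, Hspa1a, Krt1, Hexim2 and 6330403K07Rik. Plcxd1 had 14.7, 17.5 and 13.8 CPM in deficient and 7.49, 7.24 and 7.57 CPM in wild-type mice, and Hexim2 had 26.0, 24.6 and 27.2 CPM against 12.8, 11.7 and 11.2 CPM. 6330403K07Rik was the most abundant of them, at 341.6, 389.4 and 340.5 CPM against 194.1, 193.7 and 195.0 CPM. These 5 genes were picked for their likeness to Pnck, so their differences between genotypes are a description. Hspa1a has a near-identical copy, Hspa1b, and exons of Plcxd1 overlap Gtpbp6, so both counts are uncertain.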

How the data were processed

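RNA from the brains of 6 mice was purified and made into Illumina TruSeq libraries, per the labels' protocols. The authors deposited 1 raw count per gene symbol and mouse, per the file headers. The same deposited table holds an average signal, a log2 ratio of the genotypes and its error, a score (the Wald statistic) and a p-value for each gene, of which only log2 values are quoted. The submitters' processing notes name DESeq2 and GRCm38, while aligner, counter and annotation remain not given in the sources used here.

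The fit used edgeR 4.0.16 under R 4.3.3: default expression filter (minimum count 10, minimum total 15), trimmed mean of M-values scaling, and the quasi-likelihood test of genotype with Benjamini-Hochberg adjustment over all 15127 genes kept, threshold 0.05. CPM are counts per 1000000 reads of the scaled library. Standard errors come from the F statistic. The steps were tested on simulated data in which all genes had the same set variability between mice. That test does not cover the spread between the real mice. Exons, positions, coding sequences and gene overlaps came from GENCODE M21 (GRCm38), matched by symbol.

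The members, gene lists and tests were chosen with earlier results of these data known. Named are all members, Kdm5c, the signalling genes past the threshold and the 2 with the smallest p-values in each role group, the 2 nearest neighbours of Pnck on each side and those past the threshold, the 5 genes most like Pnck and the 2 most abundant genes of each marker list described. The values of 1 gene under this rule are not reported here. Alternatives used other scalings and filters, DESeq2 1.42.0, limma-voom (limma 3.58.1), a replicate block, a threshold of 0.1, the longest transcript as gene length, and each mouse left out.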

Additional observations from a re-analysis of the deposited data

How the results depend on the processing

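Each of the 140 values of the members under an alternative moved by less than 1 SD between replicates. Leaving out a mouse or changing the scaling could hardly move a value further than that, so no stability is read from it. The counts of calls varied with the setting. Of the 65 signalling genes, the number higher (2) became 0 when a mean of 5 CPM was required (6 at an unadjusted p under 0.05), 1 with limma-voom and 4 at a threshold of 0.1. Under the 5 CPM minimum Stk33 was filtered out and not tested, and Pde1a had an adjusted p of 0.0552 in edgeR's quasi-likelihood test. The number lower (2) became 5 with DESeq2 and 6 at a threshold of 0.1. Leaving out each mouse in turn gave 0 to 9 higher and 0 to 5 lower. Without deficient mouse 1 there were 9 and 5, and without wild-type mouse 1 or 2 there were 0 and 0, against 6 and 8, or 4 and 9, at an unadjusted p in edgeR. Called neighbours of Pnck (2) became 1 with upper quartile scaling, with no scaling and under the 5 CPM minimum, 4 with DESeq2 and 5 at a threshold of 0.1, and ranged from 0 to 6 with each mouse left out. Over all genes, 746 calls became 1121 without the filter (21087 genes tested) and 1213 with DESeq2. They became 2098 without deficient mouse 1, 684 without deficient mouse 2 and 155 without deficient mouse 3. With wild-type mouse 1, 2 or 3 left out, they became 44, 53 and 99. The cause was not tested.

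With a replicate block in edgeR, 0 signalling genes were higher and 0 lower (6 and 10 at an unadjusted p under 0.05), 0 neighbours were called (8 unadjusted), and 58 of all genes. The replicate numbers share no stated origin, and same-numbered mice deviated together with r of -0.06, -0.06 and 0.14. Not every mouse correlated best with its own number.

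Among the tested genes named, the sign reversed for Bcap31 without deficient mouse 3 (0.0258) or wild-type mouse 2 (0.0060), from -0.0581 to 0.0258 with each mouse left out, and for Dusp9 without deficient mouse 3 (-0.18) or wild-type mouse 3 (-0.04), from -0.18 to 0.14. Among the members, it reversed for Camk1d without deficient mouse 1 (0.08) or wild-type mouse 3 (0.03), for Camkk2 without the same mice (0.02 and 0.0077) and for Camk2b without wild-type mouse 2 (-0.0020). The depth of 20221675 to 24555412 reads leaves Stk33, at 0.918 to 3.06 CPM, the least precise of the called genes.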
